A study of Homo sapiens with 12 samples.

Results

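The 7 genes TP63, CDKN1A, MDM2, SFN, PERP, GDF15 and BTG2 were followed through ChIP-exo lists of phosphoserine STAT3 (pSTAT3) and BCL9 binding in DCIS.COM, an established human cell line used as a model of ductal carcinoma in situ. A peak pair, the unit of these lists, is a pair of borders on opposite strands that brackets a crosslinked protein. A peak pair was assigned to a gene when its midpoint lay in the gene body or within 20 kb on either side on build hg19. By this rule the 7 loci held 2325 of the 2134737 peak pairs listed in the 10 pSTAT3 and BCL9 libraries, and TP63 alone held 1347 of them (57.9%). The loci were 7 of 20090 protein-coding genes treated in the same way.

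The libraries fell into 5 groups. Cells carrying a PLKO.1 vector with a BCL9 short hairpin RNA (BCL9-knock down in the labels, KD here) gave 2 pSTAT3 and 2 BCL9 libraries, and cells with the non-silencing PLKO.1 vector (Non-scrambled control in the labels, control here) gave 3 pSTAT3 libraries, 3 BCL9 libraries and 1 library of the insulator protein CTCF. All cells were of the same line and had been transduced with lentivirus and kept under puromycin. The labels call the libraries biological replicates but do not say that they came from separate cultures, so p-values measure only the spread between these libraries, which may be technical. The knockdown itself cannot be checked from peak lists.

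TP63 encodes p63, a transcription factor of basal epithelial cells, and is transcribed from 2 starts. The upstream start gives TA isoforms with a transactivation domain, and the downstream start, inside the gene, gives the delta-N isoforms that predominate in basal epithelium. BCL9 is a coactivator of beta-catenin in Wnt signalling, and STAT3 is a transcription factor activated by cytokines. p63 and its relatives p53 and p73 bind the same kind of DNA element, a pair of 10-base arms with a cytosine and a guanine at fixed places in each arm. The other 6 genes are textbook p53 family targets. CDKN1A encodes the cell cycle inhibitor p21, SFN the 14-3-3 sigma protein that acts at the G2 checkpoint, MDM2 the ubiquitin ligase that degrades p53, PERP a desmosome protein of stratified epithelium, GDF15 a secreted stress cytokine and BTG2 an antiproliferative regulator of mRNA deadenylation.

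The lists differed widely in length. For pSTAT3 they held 415624 and 493174 peak pairs in KD cells, against 118933, 98665 and 374089 in control cells. For BCL9 they held 95586 and 336493 in KD cells, against 28690, 24728 and 148755 in control cells, and the CTCF list held 457119. The weakest listed peak pair had 3 to 9 tags depending on the library, so a locus with no peak pair in a list may still have had tags under that floor. Because the lists differed in length, counts at a gene were expressed per 10000 peak pairs of the list. Tags were counted within each library and were not adjusted for sequencing depth. Tag values of different libraries are therefore not on 1 scale, and a difference between them is not by itself a difference in binding. Numbers in the names of the lists were taken as sequencing runs, which is an assumption. The first control library of each antibody carried 1 such number, called single-run here, and the others carried 3 each. The comparisons were recomputed without these 2 libraries.

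Sequences were read from GRCh37 for the positions on which the results turn. The first set shows p53 family elements of the loci over which at least 4 of the 10 pSTAT3 and BCL9 libraries listed a peak pair. Capitals mark the 4 core bases of each arm.
TP63 intron, chr3:189542971-189542990: gtgCCTGttcaaaCATGtct
CDKN1A upstream, chr6:36635035-36635054: agaCAAGcccgggCAAGgcc
CDKN1A promoter, chr6:36644226-36644245: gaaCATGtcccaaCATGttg
MDM2 first intron, chr12:69202703-69202722: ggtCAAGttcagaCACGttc
GDF15 upstream, chr19:18484757-18484776: agaCCTGcccggaCATGtcc

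The second set shows 100-base windows at the strongest midpoints of the most widely held sites outside exons. It holds the TP63 site that was strongest with pSTAT3 and every such site with a searched motif among those in at least 9 of the 10 libraries. Capitals mark AP-1 (TGACTCA), STAT (TTCNNNGAA) or TEAD (GGAATG) motifs on either strand. The GDF15 promoter named here is that of an alternative start, upstream of the start of the reference transcript.
TP63 downstream, strongest site, chr3:189632658-189632757: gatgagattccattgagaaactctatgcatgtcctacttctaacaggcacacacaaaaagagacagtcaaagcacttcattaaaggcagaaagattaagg
TP63 downstream, chr3:189626576-189626675: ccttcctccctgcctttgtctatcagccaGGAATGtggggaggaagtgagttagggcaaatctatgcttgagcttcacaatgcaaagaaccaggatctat
TP63 downstream, chr3:189627546-189627645: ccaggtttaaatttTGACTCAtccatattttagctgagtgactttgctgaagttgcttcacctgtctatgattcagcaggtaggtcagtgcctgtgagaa
TP63 intron, chr3:189559417-189559516: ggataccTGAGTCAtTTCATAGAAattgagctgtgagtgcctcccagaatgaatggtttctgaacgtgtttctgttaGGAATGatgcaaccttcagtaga
SFN upstream, chr1:27188531-27188630: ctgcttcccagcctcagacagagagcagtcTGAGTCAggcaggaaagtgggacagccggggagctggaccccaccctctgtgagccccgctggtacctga
SFN downstream, chr1:27199024-27199123: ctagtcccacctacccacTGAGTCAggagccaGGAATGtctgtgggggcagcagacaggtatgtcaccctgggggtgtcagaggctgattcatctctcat
GDF15 promoter, chr19:18485337-18485436: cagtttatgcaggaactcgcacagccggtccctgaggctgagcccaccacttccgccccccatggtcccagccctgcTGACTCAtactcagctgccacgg

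TP63 held the most peak pairs of the 7 loci in every pSTAT3 and BCL9 library, although per kb SFN with both antibodies and CDKN1A with pSTAT3 ranked above it. It held 234 and 231 peak pairs with pSTAT3 in KD cells, against 100, 61 and 187 in control cells. With BCL9 it held 96 and 225 in KD cells, against 45, 35 and 133 in control cells, and the long CTCF list had 59. Averaged over the 10 pSTAT3 and BCL9 libraries, its share of the list ranked 14th of 20090 protein-coding genes, 25th with pSTAT3 and 14th with BCL9. TP63 is a long gene, with a locus of 305.888 kb, and per kb it ranked 443rd with pSTAT3 and 242nd with BCL9. In these 10 libraries its density per kb was 1.38 to 2.21 times that of the 1 Mb on each side of the locus. When every list was cut to its top 24728 entries, which is all that the shortest list has, TP63 held 40 and 35 in KD pSTAT3 libraries and 45, 32 and 40 in control pSTAT3 libraries. The BCL9 lists held 44 and 52 in KD and 42, 35 and 48 in control cells at that length, and the CTCF list held 0. Cut in this way, the groups overlapped and the TP63 counts of all 10 libraries lay between 32 and 52.

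TP63 also held some of the strongest peak pairs of the pSTAT3 and BCL9 lists. The best TP63 peak pair had 174 tags in each KD pSTAT3 library, against 86, 149 and 199 in the control pSTAT3 libraries. With BCL9 it had 59 and 77 tags in KD libraries, against 20, 38 and 97 in control libraries. At most 1.04% of a pSTAT3 or BCL9 list was at least as strong as its best TP63 pair, whereas in the CTCF list, where that pair had 15 tags, 32.7% was.

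Of the 6 targets, SFN had the densest locus. It held 57 and 72 peak pairs in KD pSTAT3 libraries, against 28, 22 and 59 in control ones, and ranked 24th of all genes per kb with pSTAT3 and 111th with BCL9. CDKN1A held 38 and 38 peak pairs in KD pSTAT3 libraries, against 21, 9 and 44 in control ones, and ranked 333rd per kb with pSTAT3 and 274th with BCL9. GDF15, with 31 and 39 against 11, 3 and 22, ranked 1315th and 672nd by the same measures. PERP ranked 2275th with pSTAT3, BTG2 3992nd and MDM2 8968th. The reach of 20 kb also took in parts of other protein-coding genes, GPN2 and ZDHHC18 at SFN, LRRC25 and PGPEP1 at GDF15, CPM and SLC35E3 at MDM2 and RAB44 at CDKN1A, so peak pairs there need not belong to the named gene. TP63, PERP and BTG2 had no other protein-coding gene in reach.

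**Figure D1:**
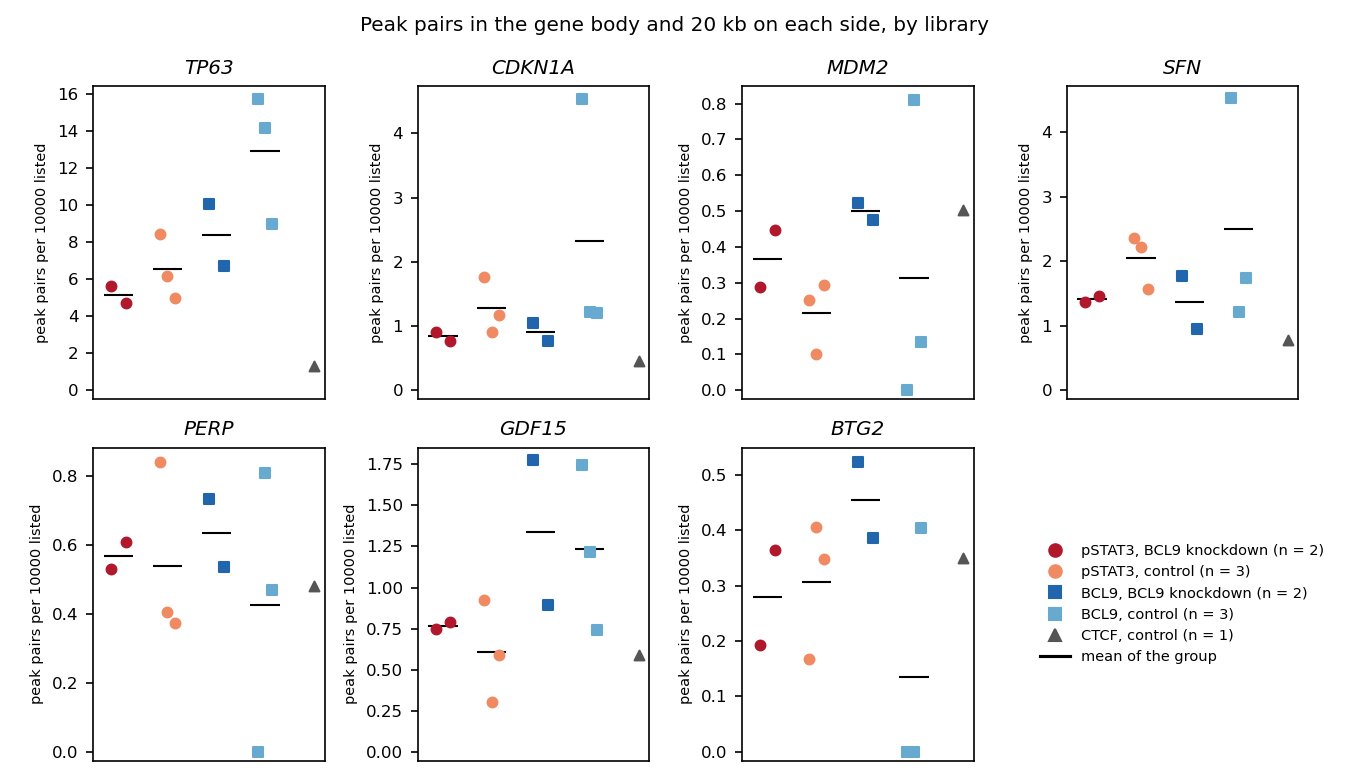
Peak pairs per 10000 listed (vertical axis, own scale for each gene) in the gene body and 20 kb on each side, for each library, with the group mean as a line. All 10 pSTAT3 and BCL9 libraries lie above the CTCF library at TP63, where the lowest was 4.68 and CTCF had 1.29.

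Within TP63 the peak pairs were not spread evenly. The 107.618 kb between the delta-N start and the gene end were set beside the 158.27 kb that only TA transcripts cover. In 10 of 10 libraries the delta-N part held more peak pairs per kb. The geometric mean of the ratio was 1.76, with a range of 1.10 to 3.21. The log2 ratio averaged 0.82 ± 0.49 (SD, n = 10 libraries). In the 5 pSTAT3 libraries alone the geometric mean of the ratio was 1.83 and in the 5 BCL9 libraries 1.69. The CTCF list had the opposite balance, with 0.139 peak pairs per kb in the delta-N part and 0.253 in the TA-only part. This comparison was chosen after the data were seen and is given as a description, with no test.

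The densest stretch lay beyond the end of the gene. The 20 kb downstream held 2.65 and 2.35 peak pairs per kb in KD pSTAT3 libraries and 1.60, 1.30 and 2.60 in control pSTAT3 libraries. The BCL9 libraries had 0.95 and 2.00 in KD and 0.85, 0.60 and 1.5 in control cells, and the CTCF list had 0.10. In every pSTAT3 and BCL9 library this was above the density of both parts of the gene body. The 20 kb upstream of the TA start held 0 to 0.55 peak pairs per kb in these libraries.

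**Figure D2:**
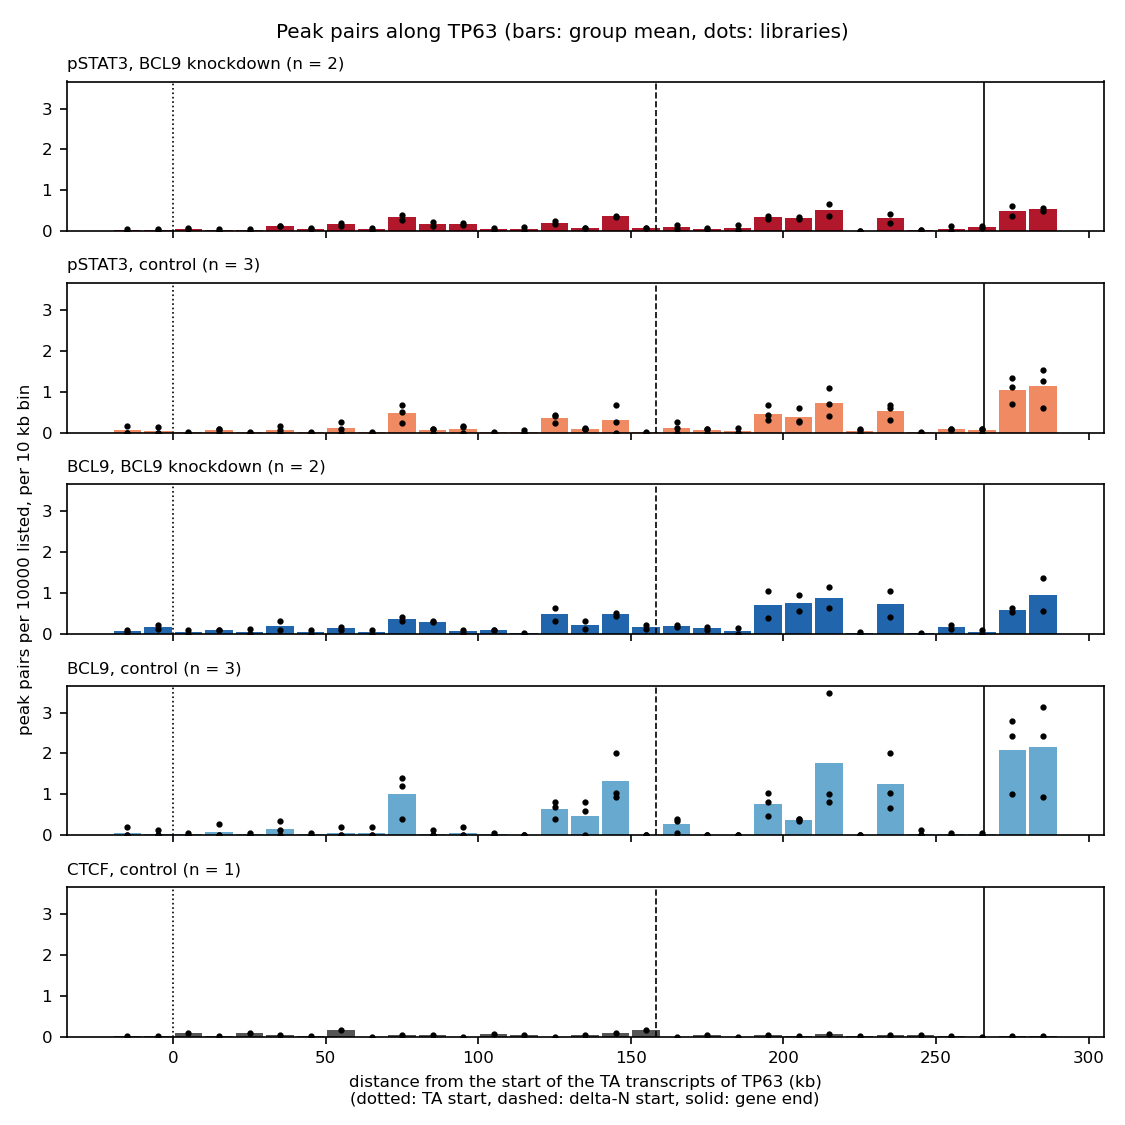
Peak pairs per 10000 listed in 10 kb bins along TP63, by distance from the TA start, for the 5 groups (bars are group means and dots are libraries, and the last bin is cut at the end of the locus). The bins beyond the gene end are among the highest with pSTAT3 and with BCL9 and near 0 with CTCF.

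Named positions carried this profile. Windows of 100 bp round each midpoint were merged over the 10 pSTAT3 and BCL9 libraries into 1106699 sites, of which 654 lay at the 7 loci. Of these 654 sites, 13 were held by all 10 libraries (1.99%, against 0.263% of all sites), 9 at TP63, 2 at CDKN1A and 1 each at SFN and GDF15. MDM2, PERP and BTG2 had none in all 10. A CTCF window lay on 4 of the 13, beside 34.0% of all 2908 such sites. At the other end, 503 of the 654 sites were listed in 1 library only (76.9%, against 85.8% of all sites). No test was made of these shares.

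The strongest TP63 site with pSTAT3 was chr3:189631825-189633191, with its best midpoint 17.6 kb beyond the gene end. Its tallest peak pair had 174 and 174 tags in KD pSTAT3 libraries and 86, 149 and 199 in control pSTAT3 libraries. BCL9 gave 49 and 61 tags there in KD and 20, 30 and 97 in control cells, and CTCF had no peak pair. Both KD BCL9 libraries, with 59 and 77 tags, and control BCL9 replicate 2, with 38, had their tallest TP63 peak pair elsewhere. The 100-base window printed above for the site from 189631825 held none of the searched motifs. That window is centred on the tallest peak pair of control pSTAT3 replicates 2 and 3. In the other pSTAT3 libraries the midpoint of the tallest pair lay outside it. Closer to the gene, the sites chr3:189626202-189626924 and chr3:189627410-189627760, 11.6 and 12.5 kb beyond the end, were also held by all 10 libraries and not by CTCF, and their printed windows hold a TEAD and an AP-1 motif.

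Inside the gene, the site chr3:189551694-189552475, 44.4 kb downstream of the delta-N start, had 110 and 108 tags in KD pSTAT3 libraries, against 17, 9 and 81 in control pSTAT3 libraries. Its BCL9 tags were 42 and 16 in KD, against 7, 38 and 54 in control cells. The site chr3:189490816-189491713, 16.5 kb upstream of the delta-N start, held the tallest BCL9 peak pair of TP63 in KD replicate 2. It had 31 and 77 BCL9 tags in KD and 9, 18 and 60 in control cells, and was missing from control pSTAT3 replicate 2. The site chr3:189559298-189559633, in the same intronic stretch, held AP-1, STAT and TEAD motifs within 100 bases and was listed in 9 libraries, all but control BCL9 replicate 3. It had 52 and 40 pSTAT3 tags in KD and 12, 8 and 23 in control cells.

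CDKN1A had 2 sites in all 10 libraries, both inside the gene. The site chr6:36647815-36648508, 1.79 kb downstream of the nearest start, had 35 and 30 pSTAT3 tags in KD libraries and 17, 20 and 36 in control libraries, and CTCF had 54 tags there. The site chr6:36650033-36650876, 3.92 kb downstream, had 33 and 19 pSTAT3 tags in KD and 8, 9 and 30 in control libraries, and no CTCF peak pair. The GDF15 site chr19:18485156-18485535 lay 0.154 kb upstream of an alternative start, itself far upstream of the start of the reference (MANE Select) transcript. It had 18 and 30 pSTAT3 tags in KD and 5, 6 and 19 in control libraries. Its BCL9 tags were 34 and 17 in KD libraries and 5, 15 and 22 in control libraries. At the reference start of GDF15, the site chr19:18496789-18496990, 0.07 kb away, was held by 5 libraries.

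At SFN the site held by all 10 libraries, chr1:27179671-27180185, lay in an intron of the neighbouring ZDHHC18 and was also the tallest CTCF position of the locus, at 99 tags. No site nearer to SFN was held by all 10 libraries. The site chr1:27189095-27189719, 0.191 kb upstream of the SFN start, had 29 and 21 pSTAT3 tags in KD and 8, 11 and 45 in control libraries, with 42 CTCF tags. The site chr1:27198916-27199223, 8.13 kb beyond the SFN end, had 19 and 35 pSTAT3 tags in KD and 16, 23 and 43 in control libraries and no CTCF peak pair. Its printed window holds an AP-1 and a TEAD motif.

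The remaining 3 genes had no site in more than 8 libraries. PERP had a site just past its 3′ end, chr6:138409258-138409905, in 8 libraries, with 52 and 34 pSTAT3 tags in KD and 13, 0 and 23 in control libraries. BTG2 had an intronic site, chr1:203275360-203275763, in 6 libraries, with at most 11 tags in any. No MDM2 site was held by more than 5 libraries, and the one in 5 was chr12:69202594-69202783, which covers the MDM2 element printed above.

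To ask where the antibodies met, consensus regions were formed from windows held by at least 2 of 3 control or both KD libraries of an antibody. In KD cells the 7 loci held 60 pSTAT3 regions, of which 29 overlapped a BCL9 region (48.3%, against 23.2% of 63829 regions of the genome). In control cells they held 43 pSTAT3 regions, of which 25 overlapped a BCL9 region (58.1%, against 23.1% of 37044). TP63 supplied 16 of the overlapping regions in KD cells and 16 in control cells, of 25 pSTAT3 regions each. CDKN1A had 4 of 5 in KD cells and 2 of 4 in control cells. SFN had 4 of 11 in KD and 4 of 7 in control cells, and GDF15 had 3 of 7 in KD and 2 of 4 in control cells. PERP had 1 of 6 in KD and 1 of 2 in control cells, and BTG2 had 1 of 4 in KD and 0 of 1 in control cells. MDM2 had 0 of 2 in KD cells and no pSTAT3 region in control cells. A CTCF window lay under 9 of the 29 overlapping regions in KD cells (31.0%, against 21.8% genome-wide) and 7 of the 25 in control cells (28.0%, against 22.9%). Without control BCL9 replicate 3, the longest of its group, 14 of the 25 control overlaps were left. Both remaining control BCL9 libraries then had to hold a window, a stricter rule than 2 of 3. Without KD BCL9 replicate 1, where a window of the remaining library suffices, the KD count was 45. These are counts of regions in the same libraries and carry no test.

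**Figure D3:**
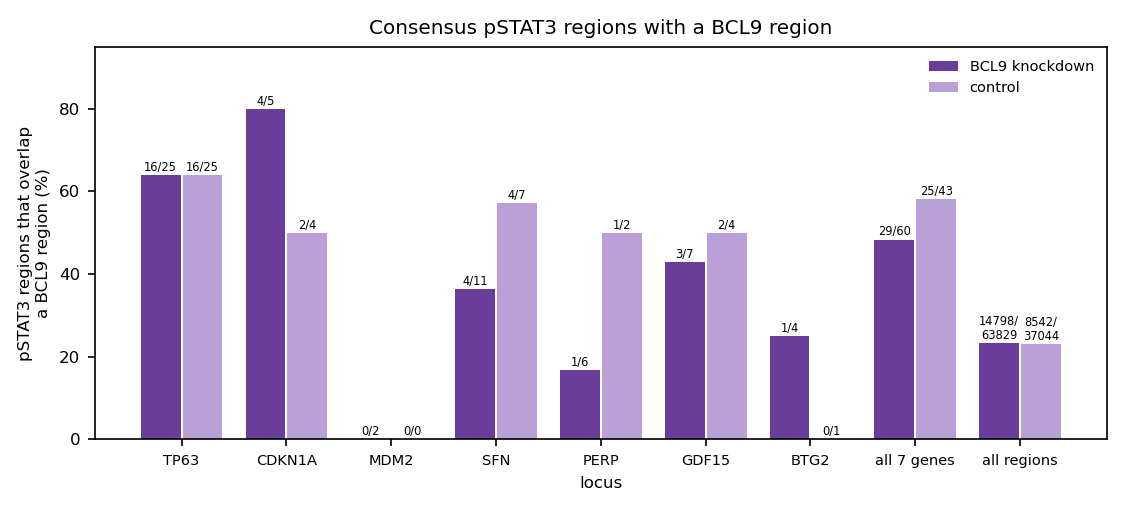
Share of consensus pSTAT3 regions that overlap a BCL9 region by at least 1 bp (vertical axis, percent), in KD and control cells, for each gene, all 7 genes and all regions of the genome, with counts above the bars. The 7 genes together stand at 48.3% in KD and 58.1% in control cells, against 23.2% and 23.1% of all regions.

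The comparison of KD with control cells asked whether losing BCL9 shifted the share of peak pairs at these genes. With 2 against 3 libraries an exact permutation has 10 assignments and cannot go below p = 0.1, so a gene was counted as higher or lower when the KD and control libraries did not overlap. With pSTAT3, 1 of the 7 genes was lower by this rule, where 7.59% of 18176 genes were, and 0 were higher, where 13% were. With BCL9, 1 was lower, where 5.51% of 14221 genes were, and 0 were higher, where 18.4% were. Neither count stands clear of its background share.

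The gene lower with pSTAT3 was SFN. It had 1.37 and 1.46 peak pairs per 10000 in KD libraries, against 2.35, 2.23 and 1.58 in control libraries, a mean of 1.42 ± 0.0626 in KD and 2.05 ± 0.417 in control cells (SD, n = 2 and 3, exact permutation p = 0.2, adjusted p = 0.991). The nearest values, 1.46 in KD and 1.58 in control libraries, lay close together. Among the 24728 strongest peak pairs of each list SFN held 3 and 7 in KD libraries and 6, 11 and 12 in control libraries, which overlap. The gene lower with BCL9 was CDKN1A, with 1.05 and 0.773 in KD libraries, against 4.53, 1.21 and 1.21 in control libraries (exact permutation p = 0.5, adjusted p = 0.926). The high value was that of the single-run control library, without which the difference was -0.30 in place of -1.41 peak pairs per 10000. Counting only peak pairs with at least 9 tags turned its direction, to 0.20 peak pairs per 10000. The CDKN1A call rested on few BCL9 peak pairs, 10 and 26 in KD libraries and 13, 3 and 18 in control libraries.

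TP63 did not pass in either antibody. Its share was 5.63 and 4.68 per 10000 in KD pSTAT3 libraries, against 8.41, 6.18 and 5.00 in control ones, a mean of 5.16 ± 0.669 in KD and 6.53 ± 1.73 in control cells (SD, n = 2 and 3, exact permutation p = 0.4). With BCL9 it was 10.04 and 6.69 in KD, against 15.7, 14.2 and 8.94 in control libraries (exact permutation p = 0.3). With lists cut to equal length the BCL9 difference turned to 2.56 per 10000, in place of -4.56. The KD lists were longer than most control lists, and the part of list length in these shares and of the knockdown cannot be told apart. Over the other members, the KD to control ratio of mean shares ran between 0.656 at CDKN1A and 1.70 at MDM2 with pSTAT3, and between 0.392 at CDKN1A and 3.38 at BTG2 with BCL9. MDM2, PERP and BTG2 rested on few peak pairs with BCL9, including lists with 0.

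Setting pSTAT3 beside BCL9 over both conditions gave 5 against 5 libraries and 252 assignments. No member passed an adjusted p of 0.05, and 0% of the 18799 genes did so in either direction. The smallest adjusted p of any gene was 0.209, and 2466 genes had an unadjusted p under 0.05. TP63 had a smaller share with pSTAT3, 5.98 ± 1.47 per 10000, than with BCL9, 11.1 ± 3.73 (SD, n = 5 each, exact permutation p = 0.0159, adjusted p = 0.258). Its pSTAT3 libraries spanned 4.68 to 8.41 and its BCL9 libraries 6.69 to 15.7, which overlap. GDF15 averaged 0.671 ± 0.238 with pSTAT3 and 1.27 ± 0.477 with BCL9 (SD, n = 5 each, exact permutation p = 0.0556, adjusted p = 0.384). For the other 5 genes the exact permutation p was at least 0.5. With lists cut to equal length the TP63 difference was -2.35 in place of -5.12 per 10000 (exact permutation p = 0.159).

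To compare sites by rank within 1 common set, the 2908 sites held by all 10 libraries were ranked by tags within each library. A small percent marks a strong site. The length of the lists still enters, since the shortest list had to hold each site. Sites with the fewest tags of a library also tie at its weak end. This comparison was added after the data were seen. Comparing the antibodies, 3 of the 13 sites at the 7 loci ranked better with pSTAT3 without overlap of the libraries, where 6.12% of shared sites did, and 1 ranked better with BCL9, where 4.13% did. No shared site passed an adjusted p of 0.05 (0% in either direction, smallest adjusted p = 0.0774, exact permutation).

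The 3 pSTAT3-leaning sites were at TP63 and CDKN1A. The TP63 site 17.6 kb beyond the gene, the strongest of TP63 with pSTAT3, stood at 0.254% ± 0.211 with pSTAT3 and 4.64% ± 3.09 with BCL9 (SD, n = 5 each, exact permutation p = 0.00794, adjusted p = 0.0774). With pSTAT3 its ranks were 0.275% and 0.585% in KD libraries and 0.275%, 0.0688% and 0.0688% in control libraries. With BCL9 they were 6.46% and 2.61% in KD and 4.88%, 8.53% and 0.688% in control libraries, so the site stood at or under 8.53% with both antibodies. The TP63 site from 189627410 stood at 21.5% ± 10.9 with pSTAT3 and 64.0% ± 14.3 with BCL9, and the CDKN1A site from 36647815 at 39.4% ± 10.2 with pSTAT3 and 80.8% ± 16.8 with BCL9 (SD, n = 5 each, the same exact p and adjusted p). The CDKN1A site is the one with a CTCF peak pair of 54 tags, and the part of CTCF in it was not tested.

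The BCL9-leaning site was in a TP63 intron, chr3:189580219-189581099, 73.1 kb downstream of the delta-N start. It stood at 53.9% ± 21.9 with pSTAT3 and 14.3% ± 12 with BCL9 (SD, n = 5 each, exact permutation p = 0.00794, adjusted p = 0.0774). Its tags were 16 and 22 in KD pSTAT3 libraries and 16, 17 and 34 in control pSTAT3 libraries. The BCL9 tags were 59 and 50 in KD and 12, 19 and 53 in control libraries. All 4 of these sites kept their side when the single-run libraries were left out, with 4087 sites shared by the 8 others (exact permutation p = 0.0286 each, the smallest that 4 against 4 libraries allow). The sites were picked because their libraries did not overlap, so leaving out libraries could hardly change the side or this p. It adds no support of its own.

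Comparing KD with control cells on these ranks, 2 of the 13 sites ranked better in KD pSTAT3 libraries, where 11.1% of shared sites did, and 2 worse, where 10.6% did. With BCL9, 2 ranked better in KD, where 12.1% did, and 1 worse, where 10.1% did. The site from 189580219 was called in both. With pSTAT3 it stood at 83.0% and 71.7% in KD libraries, against 40.0%, 35.3% and 39.4% in control libraries. With BCL9 it stood at 3.23% and 5.67% in KD libraries, against 23.6%, 30.5% and 8.73% in control libraries. The site thus ranked lower among pSTAT3 sites and higher among BCL9 sites in KD cells, a pattern of opposite and non-overlapping changes found at 1.38% of shared sites. The site from 189551694 stood at 2.17% and 3.16% in KD pSTAT3 libraries, against 36.2%, 78.1% and 5.09% in control libraries (exact permutation p = 0.2). The CDKN1A site from 36647815 stood at 42.2% and 55.0% in KD pSTAT3 libraries, against 36.2%, 27.3% and 36.2% in control libraries (exact permutation p = 0.1).

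**Figure D4:**
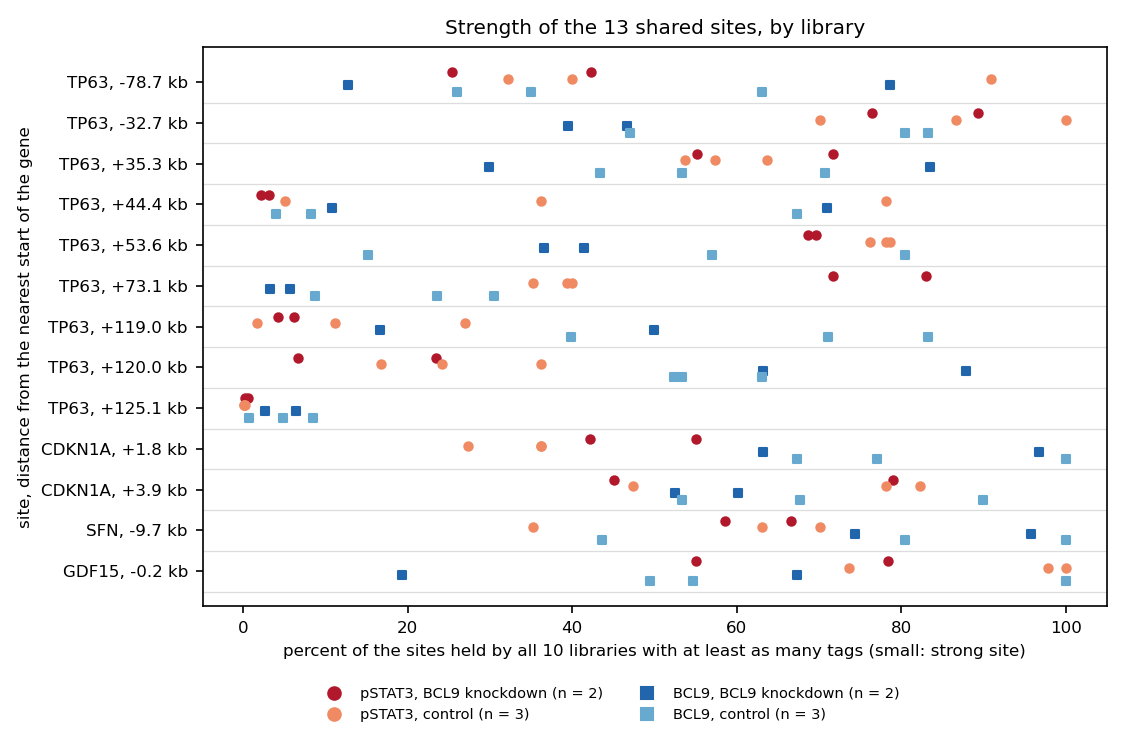
Percent of the 2908 shared sites with at least as many tags (horizontal axis, small values are strong sites) for the 13 sites of TP63, CDKN1A, SFN and GDF15, with each library as a point. The site 125.1 kb downstream of the delta-N start of TP63 stays at or under 8.53% in all 10 libraries, and at the site at 73.1 kb the BCL9 libraries lie left of the pSTAT3 libraries.

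The p53 family element was searched in the GRCh37 sequence as 2 adjacent arms with their core cytosines and guanines kept and at most 2 mismatches in all. The 7 loci held 11 such elements, and 21650 lay in the genome. A peak pair window of at least 1 of the 10 libraries covered 8 of the 11 (72.7%, against 13.7% of all elements), and windows of at least 4 libraries covered 5 (45.5%, against 2.74%). Of the 5, those at the CDKN1A promoter and in MDM2 lay within 100 bp of an annotated start. The search and these shares were added after the data were seen and carry no test.

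The 5 elements are those printed above. The TP63 element, 35.4 kb downstream of the delta-N start, lies in the site chr3:189542287-189543161. It had 18 and 14 pSTAT3 tags in KD and 7, 0 and 0 in control libraries, and 14 and 13 BCL9 tags in KD and 6, 16 and 7 in control libraries. The CDKN1A promoter element, 2.25 kb upstream of the start of the reference (MANE Select) transcript, has the sequence of the well-known distal p53 response element of p21. It had 8 and 4 pSTAT3 tags and 7 and 9 BCL9 tags in KD libraries, and no peak pair in any of the 6 control libraries. The weakest listed pair had 4 and 3 tags in the KD pSTAT3 lists and 7 and 5 in the KD BCL9 lists, so these values lie at or near the floor. In the control lists the floor was 4, 6 and 4 tags with pSTAT3 and 5, 9 and 6 with BCL9, and weaker signal would not be listed.

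The MDM2 element, 69 bp upstream of an annotated start in the first intron, where the p53-responsive promoter of MDM2 lies, had 11 and 21 pSTAT3 tags in KD, against 4, 0 and 0 in control libraries. Its BCL9 tags were 0 and 15 in KD and 0, 0 and 6 in control libraries. The GDF15 element lay 774 bp upstream of an alternative start and 12.2 kb upstream of the reference start. It had 14 and 12 pSTAT3 tags in KD and 0, 0 and 6 in control libraries, with 16 and 5 BCL9 tags in KD and 0 in all 3 control libraries. Another GDF15 element, 0.84 kb upstream of the reference start, was covered by 1 library only. The upstream CDKN1A element, 9.19 kb before the nearest start, had 19 and 17 pSTAT3 tags in KD and 0, 0 and 15 in control libraries, with 0 and 6 BCL9 tags in KD and 0, 10 and 10 in control libraries. CTCF had no peak pair over any of the 5.

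The 4 KD libraries listed these 5 elements in 3 or 4 of 4 cases each, and the 6 control libraries in 0 to 4 of 6. In the genome, too, KD lists covered more elements than the matching control lists on average. The 2 KD pSTAT3 lists covered 5.44% and 6.24% of the 21650 elements, against 2.07%, 1.53% and 4.96% in the control pSTAT3 lists. The KD BCL9 lists covered 2.16% and 4.65%, against 0.661%, 0.748% and 2.77% in the control BCL9 lists. Elements covered in all 4 KD libraries and at most 1 control library, as at CDKN1A and GDF15, numbered 30 in the genome (0.139%). In the strongest 24728 peak pairs of each list only 1 of the 5 elements remained under 4 or more libraries. The length of the lists and the knockdown cannot be told apart in these counts.

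**Figure D5:**
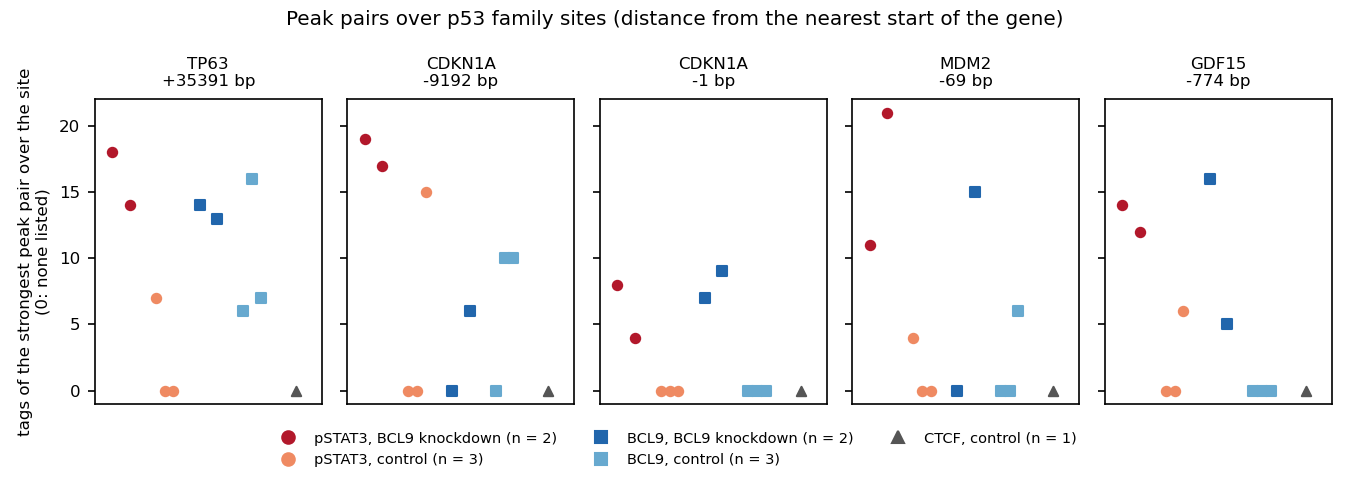
Tags of the strongest peak pair over each of the 5 p53 family elements (vertical axis, 0 where none was listed), by group, with each library as a point and the distance to the nearest start in bp above each panel. At the CDKN1A element beside a start the 4 KD libraries had 4 to 9 tags and the 6 control libraries none listed. The weakest listed pair had 3 to 7 tags in the KD lists and 4 to 9 in the control lists, and tags are not adjusted for depth.

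Over consensus regions the element was rare. A 100-base window at the best midpoint held it in 3 of the 60 pSTAT3 regions of the loci in KD cells (5.00%, against 0.609% of all) and in 0 of the 43 in control cells (0%, against 0.632%). The AP-1 motif was found in 10 of the 43 control pSTAT3 regions of the loci (23.3%, against 25.3% of all) and in 7 of the 25 that overlapped BCL9 (28.0%, against 21.8%). The STAT motif was in 0 of the 43 (against 3.64%) and the TEAD motif in 4 of the 43 (9.30%, against 10.9%). Only the 100 bases at the best midpoint of each region were searched. The STAT motif printed above for a TP63 intronic site, which every control pSTAT3 library listed, lay outside the 43 control windows. A pair of CATG cores at the spacing of the p53 element, also searched, was in 0 of the 43 (against 0.691%). In KD cells, of the 60 pSTAT3 regions of the loci, 15 held the AP-1 motif (25.0%, against 23.5% of all), 3 the STAT motif (5.00%, against 3.71%), 7 the TEAD motif (11.7%, against 9.58%) and 2 the CATG pair (3.33%, against 0.696%). A match is a string of letters and says nothing about which protein was bound.

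Other genes of the pathway were described from 4 lists, whose counts stand beside background shares of 13% higher and 7.59% lower with pSTAT3 and 18.4% higher and 5.51% lower with BCL9. Calls of 0 to 2 genes in lists of 6 to 10 are not set apart from these shares. With pSTAT3 in KD against control cells, MDM4, a relative of MDM2 that restrains p53, was higher among 6 p53 family genes and regulators, at 0.748 per 10000 in KD and 0.416 in control cells. Among 10 cell cycle, repair and metabolic targets XPC, a DNA damage sensor, was higher (0.723 in KD and 0.482 in control cells) and ZMAT3, an RNA-binding p53 target, was lower (0.726 in KD and 1.05 in control cells). None of 7 apoptosis targets was called, and among 9 epithelial p63 targets VDR, the vitamin D receptor, was lower (1.21 in KD and 1.40 in control cells). With BCL9, TP53I3, an oxidoreductase induced by p53, and KRT14, a basal keratin, were higher in KD cells, at 0.589 per 10000 in KD and 0.247 in control cells for TP53I3 and 0.544 in KD and 0.0896 in control cells for KRT14. The control values ran from 0 to 0.404 for TP53I3 and from 0 to 0.269 for KRT14, so both means include lists with no peak pair. KRT5, the partner keratin of KRT14, was lower (0.477 in KD and 1.14 in control cells). None of the 6 p53 family genes and 9 tested cell cycle targets was called with BCL9. No gene of the genome had an adjusted p under 0.814 between KD and control cells, and no list gene was called between the antibodies. The median difference between KD and control cells over the 9 p63 targets with BCL9 was -0.36 per 10000, beside 0.09 over all genes tested.

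The genes whose shares ran most like TP63 over the 11 libraries were C1orf116 and ENSG00000268465 (Spearman's rho 0.991 each, of 7991 genes with at least 100 peak pairs and over 1 Mb away), then CA12, CFAP95 and CYTH2 (0.982). In all, 9 genes reached 0.982. The 11 points share their list lengths, so this likeness is a description of the libraries as much as of the genes.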

How the data were processed

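The authors deposited one list of ChIP-exo peak pairs for each library, with positions on hg19 and a signal in its score column. Within a library every deposited signal was an integer multiple of 1 smallest step, and division by it gave tags (largest distance from an integer 6.54e-13). The step ran from 0.369 in control BCL9 replicate 2 to 1.07 in KD pSTAT3 replicate 2, so tags do not keep any scaling of the deposited signal. The submitters' processing notes name bcl2fastq and hg19, the study's methods name ChExMix, and no aligner is named in the sources used here. Lists were per library. Sequencing depth was not used, so the precision rests on tags per peak pair and on the spread between libraries. The IgG library was not analysed here.

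Gene bodies and transcripts came from GENCODE 44 lifted to GRCh37, whose chromosomes contained all listed positions. Genes needed at least 10 peak pairs over the libraries compared. Conditions and antibodies were compared by exact two-sided permutation of libraries with Benjamini-Hochberg adjustment at 0.05 over all genes, or by whether libraries overlapped. Alternatives were equal list length, at least 9 tags, other reaches, other denominators, tags, and leaving out libraries. The tests were tested on simulated data. The members, lists and rules were chosen with earlier results of these data known. All 7 members were named, other list genes where called (some are not reported here), the 5 genes most like TP63, and sites by how many libraries held them, a rule set after values were seen, as were the shared-site, TP63 part and p53 element comparisons. Libraries were not paired by replicate number. Deviations of same-numbered libraries correlated between -0.147 and 0.259, and those of differently numbered ones between -0.314 and 0.314. The deviations of 2 KD libraries mirror each other by construction, so this check cannot exclude a pairing. Scripts ran under matplotlib 3.10.9, scipy 1.17.1, pandas 2.3.3, numpy 2.4.6 and Python 3.11.15.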

Additional observations from a re-analysis of the deposited data

Results flagged for a closer look

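The KD effect on the TP63 intronic site chr3:189580219-189581099 differed between the antibodies. Its rank among shared sites was 39.2 percentage points worse in KD than in control cells with pSTAT3 and fell by 16.5 points, a better rank, with BCL9, and every KD library lay outside the control range in both. The difference between the antibodies was 55.7 points. Permuting the condition within each antibody gave an exact p of 0.01, the smallest that its 100 assignments allow, and an adjusted p of 1.00 over the 2908 shared sites, so the result did not pass the correction. The site was singled out after its values were seen, and 1.38% of shared sites had opposite changes without overlap. It was picked by that rule, which all but fixes the exact p at its smallest, so the p adds no support of its own.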

How the results depend on the processing

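The counts of genes whose KD and control libraries did not overlap moved with most settings. With pSTAT3 they were 2360 higher and 1380 lower, against 280 and 278 at equal list length, 1050 and 695 with at least 9 tags, 1558 and 806 for the gene body alone, and 3560 and 2868 without the single-run library, while 856 were lower above the median signal. Leaving out 1 library gave 3560 to 5032 higher and 2349 to 2868 lower. With BCL9 they were 2611 higher and 784 lower, against 330 and 233 at equal list length, 748 and 259 with at least 9 tags, 1123 and 410 above the median signal and 1386 and 419 for the gene body alone, while 1445 were lower without the single-run library. Leaving out 1 library gave 2289 to 4810 higher and 1108 to 1746 lower. The replicate number was also taken as a block, a pairing that was neither shown nor excluded. The counts were then 6391 and 3290 with pSTAT3 and 5513 and 2145 with BCL9. TP63 between the antibodies had p = 0.0625 in an exact sign-flip test. Between pSTAT3 and BCL9, 387 genes were higher and 434 lower at equal list length, where 0 were called otherwise, also when leaving out each library. By construction, fewer libraries make non-overlap easier, and shorter lists leave fewer genes to test. For the other moves the cause was not tested.

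Of the alternatives for single members, 95 of 106 kept their sign with pSTAT3, 93 of 102 with BCL9 and 132 of 151 between the antibodies. CDKN1A with BCL9 reversed to 0.20 per 10000 with at least 9 tags. TP63 kept the lower share with pSTAT3 than BCL9 in all 22 alternatives (exact p between 0.00794 and 0.159). Control regions of pSTAT3 that overlapped BCL9 numbered 25, against 15 at equal list length, 13 when all libraries had to hold a window, 50 when any did and 14 to 23 when leaving out 1 library. In KD cells they numbered 29, against 7, 105 when any did and 32 to 45 when leaving out 1. The 5 p53 elements became 2 with 1 mismatch, 8 with 3 and 1 at equal list length. The delta-N to TA ratio of 1.76 stayed between 1.65 and 1.86 when leaving out each library, with 2.07 at equal list length and 2.18 with at least 9 tags, all chosen after seeing the data. The lowest listed pair, 3 to 9 tags, limits what a missing pair can show.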
